A study of Mus musculus with 8 samples.

Results

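Type I interferon-stimulated genes are the antiviral genes that cells switch on when interferon reaches them. The list described here held 50 genes, chosen by symbol: 4 interferon receptor genes, 13 regulators, 9 sensors of foreign or misplaced nucleic acid, 15 antiviral effectors and 9 other induced genes whose roles are less clear cut. The receptor genes begin the pathway and are counted as members, though they are not antiviral genes themselves. Of the 50, 48 were in the deposited table of CD8 T cells and 48 in that of group 2 innate lymphoid cells (ILC2s), out of 19805 genes in either table, and 47 were in both. Oas2 was in neither table, Ifi44 was not in that of CD8 T cells and Ifit3 was not in that of ILC2s. All members in a table passed the filter on low counts there.

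The cells were primary cells of wild-type mice, CD8 T cells from spleen and ILC2s from lung. ILC2s live in tissues such as the lung, carry no T or B cell receptor and are known for secreting interleukins 5 and 13. The series concerns the presentation of antigen by ILC2s to CD8 T cells. Each cell type was sequenced after 3 days of culture together at a ratio of 5:1, or of culture on its own, which gave 4 groups of 2 libraries, all of untreated cells apart from the co-culture. Cells of each group were sorted by flow cytometry, and neither the age of the mice nor any stimulus in the medium is stated. Whether the 2 libraries of a group are from different mice or cultures is not stated either, and the p-values reflect the spread between these libraries alone, which may be technical.

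Type I interferons bind the receptor made of IFNAR1 and IFNAR2, and interferon gamma binds that of IFNGR1 and IFNGR2. JAK kinases on these receptors activate STAT proteins, and a complex of STAT proteins with IRF9 binds the interferon-stimulated response element (ISRE) before the antiviral genes. Interferon gamma acts mainly through the GAS element, and many members respond to both kinds of interferon. In lymphocytes these genes are known for their response to viral infection, and several of them keep a basal level without infection.

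Total counts ran from 48072595 to 67076905 reads a library, so that 3 reads corresponded to 0.0447 to 0.0624 CPM (counts of a gene scaled to a common library total). The ILC2 libraries labelled alone held more RNA of markers of other cells. Of 10 CD8 T cell markers 9 fell, from a sum of 1389 to 1466 CPM in the libraries labelled alone to 171.6 to 207.0 CPM in those labelled co-cultured. Of 13 macrophage markers 5 were in the table and all 5 fell (313.3 to 319.1 CPM and 17.0 to 21.1 CPM), while those not in it included Fcgr1, Mertk, C1qa, C1qb, C1qc, Mrc1 and Msr1. Of 13 stroma markers 9 were in the table, of which 6 fell and 2 rose (4761 to 5110 CPM and 314.6 to 323.0 CPM). The 7 dendritic cell, 6 B cell and 4 NK cell markers in the table fell in 4, 2 and 4 cases and rose in 1, 1 and 0. ILC2 markers went the other way, with 12 of 14 up and 1 down, and sums of 3163 to 3301 CPM labelled alone and 9013 to 9281 CPM labelled co-cultured. Cd8a, for example, stood at 249 and 258 CPM in the ILC2 libraries labelled alone and at 6.09 and 6.76 CPM in those labelled co-cultured, although the culture without CD8 T cells is the one labelled alone. Groups are therefore named by their labels throughout. Whether the labels of the ILC2 libraries are exchanged was not tested, and an exchange would turn the direction of every ILC2 change and alter every difference between the cell types. The part of these other cells in the results on ILC2s was not tested. In bulk RNA of this kind, fewer cells of a type and less RNA per cell cannot be told apart.

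The promoters were searched for the elements through which interferons act. RefSeq windows of GRCm38.p6, from 250 bases before to 50 bases after an annotated start, were matched for 40 of the 50 members. The core letters of the ISRE, GAAA and GAAA with any 2 bases between them on either strand, stood in the windows of 15 of these 40 members (37.5%), and in 3.99% of the 27025 genes with a window. They were found for 5 of 6 sensors, 6 of 13 effectors, 2 of 10 regulators, 2 of 7 other induced genes and 0 of 4 receptors. The GAS letters, TTCNNNGAA, stood in 27.5% of the members and 9.55% of all genes with a window. The 150 bases just before an annotated start are given for 4 members, read 5′ to 3′ on the gene's strand, with each match to the ISRE core in capitals. Ifit1 and Isg15 are shown because they hold more than 1 match, Slfn8 because its response was opposite in the cell types, and Oasl1 because it had the largest fall in ILC2s.
Ifit1, chr19:34640739-34640888, plus strand: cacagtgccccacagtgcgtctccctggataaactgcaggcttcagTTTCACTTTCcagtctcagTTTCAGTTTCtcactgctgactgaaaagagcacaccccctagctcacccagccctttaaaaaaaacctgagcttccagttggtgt
Isg15, chr4:156200819-156200968, minus strand: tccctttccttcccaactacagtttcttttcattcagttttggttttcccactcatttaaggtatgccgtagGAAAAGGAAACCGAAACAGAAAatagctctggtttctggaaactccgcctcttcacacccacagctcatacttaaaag
Slfn8, chr11:83020811-83020960, minus strand: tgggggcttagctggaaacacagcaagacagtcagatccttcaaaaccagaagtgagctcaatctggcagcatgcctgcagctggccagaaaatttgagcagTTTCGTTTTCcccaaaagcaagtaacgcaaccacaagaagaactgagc
Oasl1, chr5:114923090-114923239, plus strand: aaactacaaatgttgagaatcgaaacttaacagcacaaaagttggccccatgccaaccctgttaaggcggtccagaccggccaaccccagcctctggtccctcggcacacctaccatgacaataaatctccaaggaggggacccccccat

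The matches of Ifit1 began 104 and 85 bases before the start and lay on the other strand, where TTTC reads GAAA. Isg15 held 3 matches that overlap in 1 run of letters, beginning 78, 72 and 66 bases before the start. The single match of Slfn8 began 48 bases before the start. No match stood in the Oasl1 window, which says only that these letters are not in it. The annotated start used for Oasl1 lies inside the gene's span of 114923143 to 114937911. Part of its printed stretch is therefore within the gene, and the bases before the gene's outer edge were not all searched. The starts used for other members without a match, such as Ifit2, Xaf1, Cmpk2, Rnf213 and Irf7, also lie inside the gene's span. The share of members with a match thus rests on windows that leave out some of these bases. None of the 4 stretches held the GAS letters.

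The list split evenly in CD8 T cells. Of the 48 members tested, 17 rose and 17 fell in the libraries labelled co-cultured, and 14 did not pass the test (edgeR quasi-likelihood test, Benjamini-Hochberg adjusted p under 0.05). Of all 15948 genes tested, 60.9% were called (30.2% higher and 30.7% lower), beside 70.8% of the members (35.4% in each direction). The median size of a log2 change was 0.52 for the members and 0.52 for all genes tested, and the groups did not overlap in CPM for 39 of 48 members, beside 81.2% of all genes. Calls of Irf7, Slfn2, Mx2, Oas3 and Parp14 ended without CD8 alone replicate 2, and those of Slfn2, Mx2, Parp14 and Trim30a without CD8 co-cultured replicate 2. By role, all 4 receptors rose, 8 of 13 regulators rose and 3 fell, 2 of 8 sensors rose and 4 fell, 2 of 15 effectors rose and 6 fell, and 1 of 8 other induced genes rose and 4 fell. Of the 8 regulators that rose, Irf7, Parp14 and Trim30a each lost their call when some library was left out.

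In ILC2s the antiviral genes fell together. Of 48 members tested 34 fell, 6 rose and 8 did not pass, which is 70.8% lower and 12.5% higher, beside 34.4% lower and 31.8% higher among the 16739 genes tested (66.3% called in all). The median log2 change was -0.98 over the members and -0.01 over all genes tested, and the groups did not overlap in CPM for 45 of 48 members, beside 83.4% of all genes. Effectors fell in 11 of 14 cases, sensors in 7 of 8, regulators in 8 of 13 and other induced genes in 8 of 9, while 3 of 4 receptors rose. The 6 members that rose were Ifnar1, Ifnar2, Ifngr1, Dtx3l, Dhx58 and Samhd1. Each of these 6 fell when the libraries were scaled to their ILC2 marker genes, a setting that moved the median of all genes to -1.722, so rises in ILC2s are relative to the TMM scaling (trimmed mean of M-values) used here. Among all genes called in ILC2s, 48.0% were higher with TMM scaling and 2.3% with the marker scaling.

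**Figure D1:**
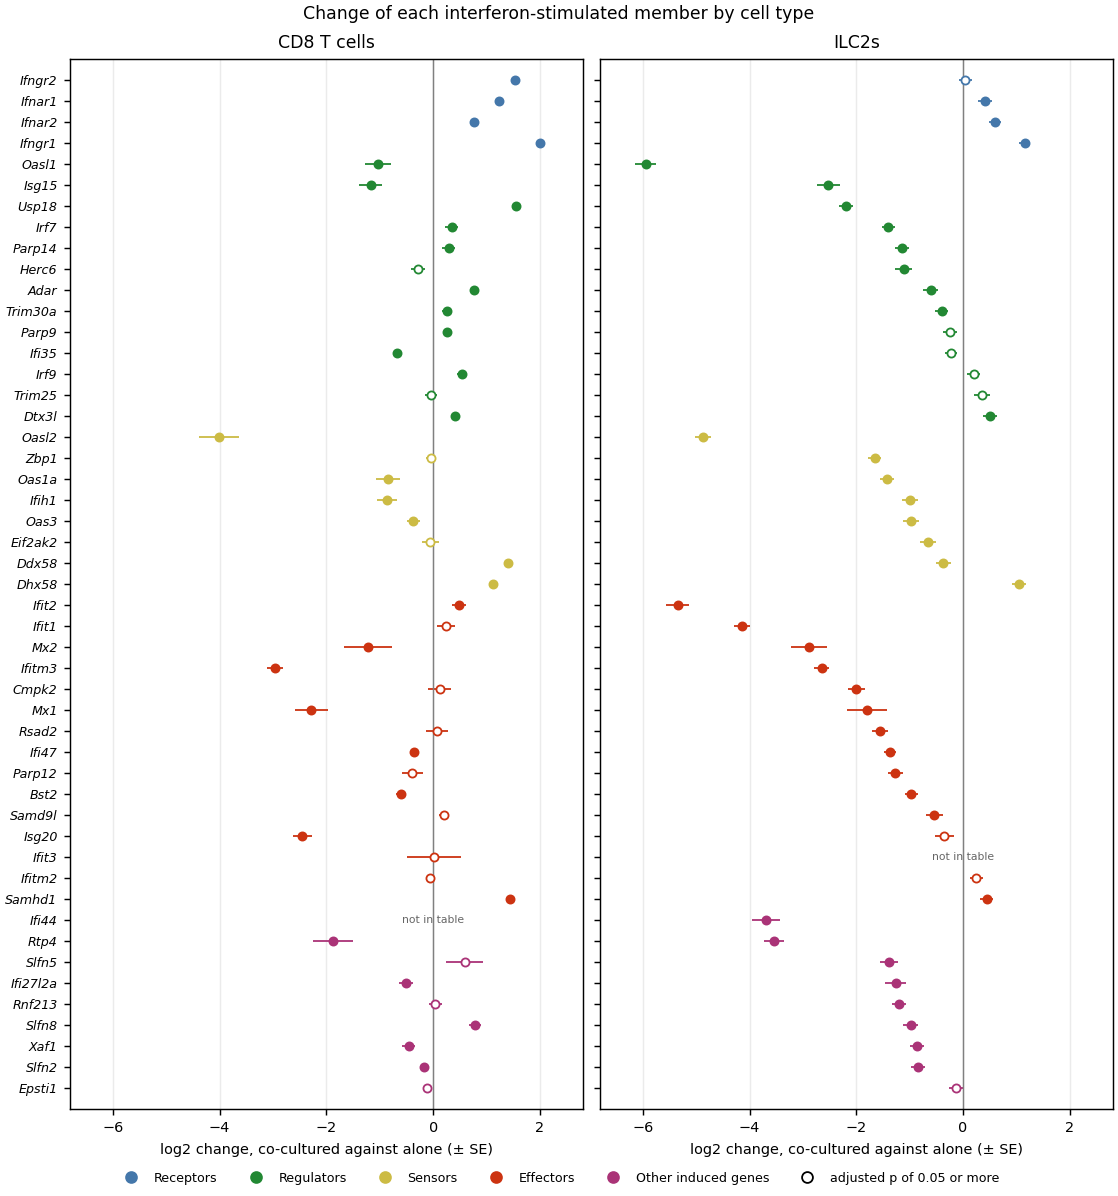
Log2 change of every tested member in libraries labelled co-cultured against alone, in CD8 T cells (left) and ILC2s (right), with bars of 1 SE, genes grouped by role and open circles where the edgeR adjusted p was 0.05 or more. Changes in CD8 T cells ran from -4.02 (Oasl2) to 2.01 (Ifngr1) on both sides of 0, while those in ILC2s ran from -5.95 (Oasl1) to 1.15 (Ifngr1) with 34 of 48 lower.

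The receptor genes are described first, since they begin the pathway. Ifngr1, the ligand-binding chain of the interferon gamma receptor, stood at 334 and 377 CPM in CD8 libraries labelled alone and at 1527 and 1508 CPM in those labelled co-cultured (edgeR log2 change 2.01 ± 0.079 SE, adjusted p = 1.3e-09). In ILC2s it went from 1080 and 1062 CPM to 2064 and 2018 CPM (edgeR log2 change 1.15 ± 0.108 SE, adjusted p = 2.5e-06). The groups did not overlap in either cell type, and the rise was the smaller in ILC2s by 1.03 on the log2 scale (interaction -1.03, SE 0.128, edgeR adjusted p = 5.4e-06). Ifngr1 lies on chromosome 10 at 19591949 to 19610229.

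Ifngr2, the signalling chain of the same receptor, rose in CD8 T cells and did not pass in ILC2s. Its level was 38.5 and 38.2 CPM labelled alone and 123 and 112 CPM labelled co-cultured in CD8 T cells (log2 change 1.54 ± 0.078 SE), against 126 and 140.2 CPM and 122 and 115 CPM in ILC2s (edgeR log2 change 0.04 ± 0.124 SE, adjusted p = 0.77). The responses differed (interaction -1.65, SE 0.144, edgeR adjusted p = 1.0e-07).

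Both chains of the type I interferon receptor rose in both cell types. Ifnar1 was at 94.1 and 107 CPM in CD8 libraries labelled alone and at 260.2 and 243 CPM in those labelled co-cultured (log2 change 1.24 ± 0.082 SE). In ILC2s, Ifnar1 was at 113 and 114 CPM and then at 140.0 and 119.9 CPM (edgeR log2 change 0.41 ± 0.131 SE, adjusted p = 0.016). That call ended with scaling by library total (log2 change 0.19, edgeR adjusted p = 0.16) and without ILC2 co-cultured replicate 1 (log2 change 0.22). Ifnar2 went from 66.4 and 70.2 CPM to 116 and 130.1 CPM in CD8 T cells (log2 change 0.77 ± 0.082 SE) and from 144 and 143 CPM to 177 and 199.7 CPM in ILC2s (log2 change 0.60 ± 0.115 SE). The difference between the responses passed for Ifnar1 (interaction -0.99, SE 0.154, edgeR adjusted p = 5.5e-05) and not for Ifnar2 (-0.32, SE 0.135, edgeR adjusted p = 0.055). Ifnar2, Ifnar1 and Ifngr2 are neighbours on chromosome 16, with starts at 91372783, 91485032 and 91547059.

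Among the regulators, Usp18 changed in opposite directions. It encodes the protease that removes ISG15 from proteins and that blocks signalling at the type I receptor. Usp18 in CD8 T cells stood at 65.1 and 62.7 CPM labelled alone and at 209.7 and 185 CPM labelled co-cultured (edgeR log2 change 1.55 ± 0.079 SE, adjusted p = 1.0e-08). In ILC2s it stood at 116 and 126 CPM labelled alone and at 23.5 and 22.3 CPM labelled co-cultured (edgeR log2 change -2.19 ± 0.131 SE, adjusted p = 6.3e-08). Among libraries labelled alone Usp18 was higher in ILC2s, and among those labelled co-cultured it was higher in CD8 T cells, with no overlap of the groups. The difference between the responses was -3.89 (SE 0.15, edgeR adjusted p = 6.7e-12). The gene lies on chromosome 6 at 121245906 to 121270917.

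Irf7, the transcription factor gene that amplifies interferon production, followed the same pattern with a smaller rise. It stood at 10.6 and 9.76 CPM in CD8 libraries labelled alone and at 14.6 and 12.9 CPM in those labelled co-cultured (edgeR log2 change 0.35 ± 0.124 SE, adjusted p = 0.025). That call ended without CD8 alone replicate 2 (log2 change 0.31, edgeR adjusted p = 0.11) and without CD8 co-cultured replicate 1 (0.26, edgeR adjusted p = 0.15). In ILC2s Irf7 fell from 149 and 154 CPM to 51.3 and 47.6 CPM (edgeR log2 change -1.40 ± 0.125 SE, adjusted p = 1.7e-06). The level in every ILC2 library was above that in every CD8 library, and the responses differed by -1.91 (SE 0.156).

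Irf9, the DNA-binding part of the complex that binds the ISRE, rose in CD8 T cells from 46.8 and 53.2 CPM to 78.4 and 75.9 CPM (log2 change 0.54 ± 0.085 SE). In ILC2s its groups overlapped, with 105 and 114 CPM labelled alone and 110.3 and 106 CPM labelled co-cultured (edgeR log2 change 0.20 ± 0.121 SE, adjusted p = 0.17). The difference between the responses was -0.51 (SE 0.145, edgeR adjusted p = 0.0082), and that call ended without CD8 alone replicate 1 (-0.42, edgeR adjusted p = 0.054).

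Isg15, the ubiquitin-like modifier itself, fell in both. It stood at 2.92 and 2.87 CPM in CD8 libraries labelled alone and at 1.41 and 1.31 CPM in those labelled co-cultured (log2 change -1.17 ± 0.216 SE). In ILC2s it stood at 35.8 and 26.7 CPM and then at 3.57 and 5.78 CPM (log2 change -2.53 ± 0.215 SE), a larger fall (interaction -1.52, SE 0.297, edgeR adjusted p = 4.6e-04). Oasl1, which encodes an inhibitor of Irf7 translation, had the largest change of any member in ILC2s. Its level there was 30.5 and 32.0 CPM labelled alone and 0.454 and 0.416 CPM labelled co-cultured, the latter from 22 and 20 reads (edgeR log2 change -5.95 ± 0.204 SE, adjusted p = 6.2e-10). Oasl1 in CD8 T cells was low throughout, at 1.97 and 2.14 CPM and at 1.01 and 1.12 CPM (log2 change -1.03 ± 0.244 SE), and the responses differed by -5.08 (SE 0.281).

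The other regulators are given by their direction. In CD8 T cells, the RNA-editing enzyme gene Adar rose from 32.6 and 32.7 CPM to 57.4 and 59.8 CPM, and Dtx3l, Parp9, Parp14 and Trim30a also rose, by log2 changes of 0.25 to 0.41. Ifi35 fell there, and the ubiquitin ligase genes Herc6 and Trim25 did not pass. In ILC2s, Adar, Parp14, Trim30a and Herc6 fell, Dtx3l rose, and Parp9, Ifi35 and Trim25 did not pass. Trim25 was near the threshold there (log2 change 0.35, edgeR adjusted p = 0.055). It was called higher with DESeq2 size factors, upper quartile scaling, limma-voom and some other settings, and lower with scaling to ILC2 marker genes. Parp9 and Ifi35 were called lower with scaling by library total. The fall of Adar in ILC2s was from 71.2 and 70.6 CPM to 44.3 and 35.2 CPM, so its levels crossed between the cell types as those of Usp18 did.

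**Figure D2:**
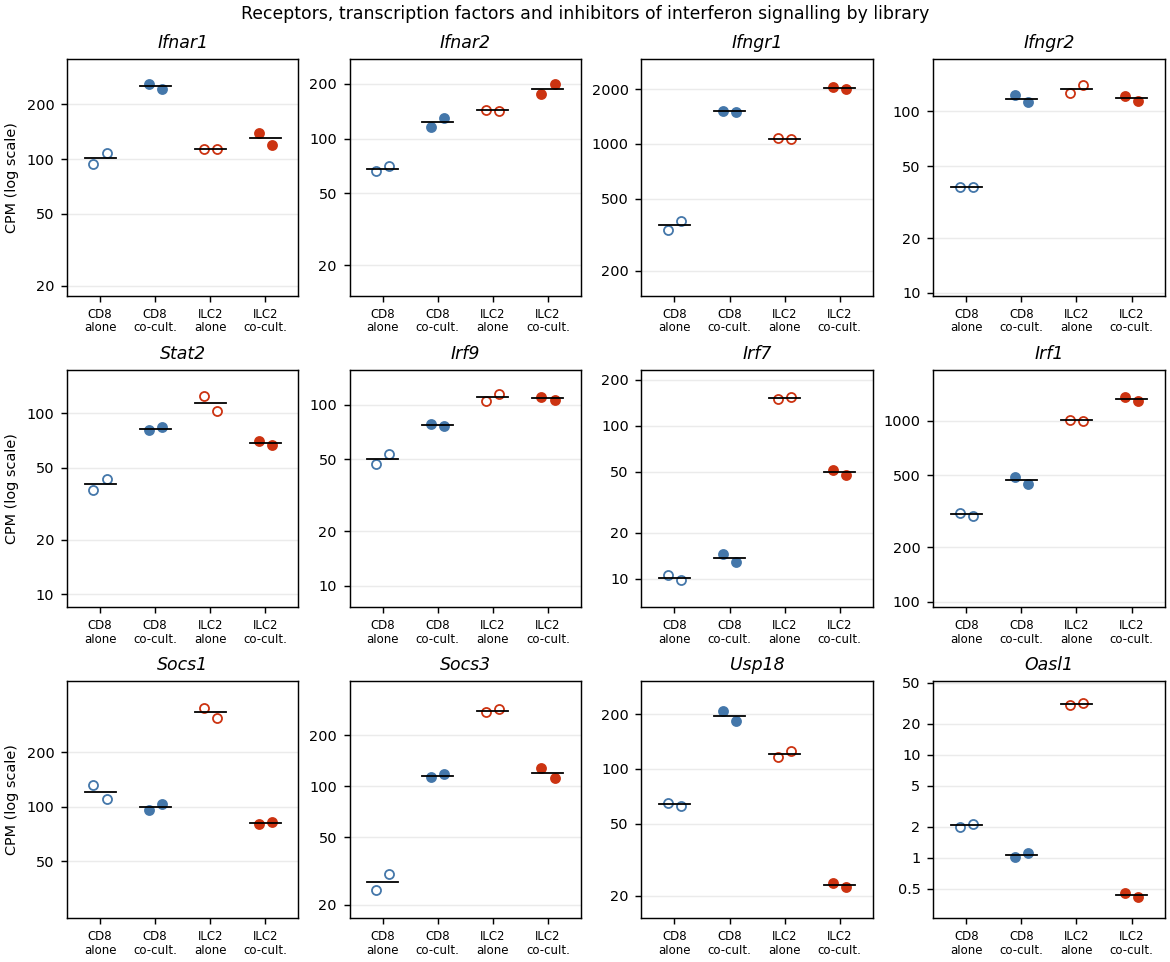
CPM on log axes for receptors, transcription factors and inhibitors of interferon signalling, with 1 circle a library (open for alone, filled for co-cultured, blue for CD8 T cells, red for ILC2s) and lines at group means. Usp18 sat at 62.7 and 65.1 CPM and rose to 185 and 209.7 CPM in CD8 T cells but fell from 116 and 126 to 22.3 and 23.5 CPM in ILC2s, while all receptor chains were higher in CD8 T cells labelled co-cultured than in those labelled alone.

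Among the 8 sensors tested in CD8 T cells, 2 rose and 4 fell, beside 30.2% higher and 30.7% lower among all genes tested. Ddx58, which encodes the RNA helicase RIG-I, rose from 22.8 and 23.7 CPM to 64.2 and 65.8 CPM (edgeR log2 change 1.40 ± 0.082 SE, adjusted p = 2.8e-08), and Dhx58, the gene of the related helicase LGP2, rose from 54.9 and 63.7 CPM to 143 and 131 CPM. The third helicase gene of the family, Ifih1, which encodes MDA5, fell (log2 change -0.86), as did Oas1a (-0.85), Oas3 (-0.37) and Oasl2 (-4.02), members of the oligoadenylate synthetase family that activates RNase L or binds RNA. Zbp1, a sensor of nucleic acid in the Z form, and Eif2ak2, the gene of the RNA-activated kinase PKR, did not pass.

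In ILC2s all 8 sensors tested were called and 7 fell, beside 66.3% called and 34.4% lower among all genes tested. Ddx58 stood at 100.04 and 88.8 CPM labelled alone and at 69.5 and 56.1 CPM labelled co-cultured (edgeR log2 change -0.37 ± 0.146 SE, adjusted p = 0.043), a small fall whose call ended with DESeq2 size factors (edgeR adjusted p = 0.065), without ILC2 alone replicate 1 (0.17) and without ILC2 co-cultured replicate 2 (0.25). The difference from the CD8 response of Ddx58 was larger than its spread (interaction -1.93, SE 0.168, edgeR adjusted p = 1.0e-07). Zbp1 fell from 257 and 253 CPM to 68.9 and 70.5 CPM. Dhx58 was the sensor that rose, from 41.3 and 38.5 CPM to 73.2 and 68.9 CPM.

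Oasl2 fell steeply in both cell types. Its level in ILC2s was 115 and 114 CPM labelled alone and 3.55 and 3.14 CPM labelled co-cultured (edgeR log2 change -4.87 ± 0.155 SE, adjusted p = 3.5e-10). CD8 T cells held far less, 2.91 and 2.70 CPM labelled alone and 0.0907 and 0.268 CPM labelled co-cultured, the last from 6 and 18 reads (log2 change -4.02 ± 0.376 SE). The difference of -1.01 between these responses (SE 0.402, edgeR adjusted p = 0.044) was near the threshold. Its call ended with DESeq2 size factors (edgeR adjusted p = 0.077), upper quartile scaling (edgeR adjusted p = 0.083) and limma-voom (adjusted p = 0.13). It also ended with no low-count filter (edgeR adjusted p = 0.056), with the replicate block (edgeR adjusted p = 0.059) and without most of the single libraries. Over 17 alternatives the difference ran from -2.61 to -0.05, the latter without CD8 co-cultured replicate 2. Oasl1 and Oasl2 are neighbours on chromosome 5, at 114923143 to 114937911 and 114896926 to 114912245.

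Among the effectors, Ifit2 had the largest difference between the cell types. Ifit2 encodes a protein of the tetratricopeptide family that binds viral RNA and the translation machinery. It rose in CD8 T cells from 7.86 and 7.08 CPM to 11.3 and 10.96 CPM (edgeR log2 change 0.49 ± 0.13 SE, adjusted p = 0.0053). In ILC2s it fell from 32.9 and 30.3 CPM to 0.784 and 0.541 CPM, the latter from 38 and 26 reads (edgeR log2 change -5.35 ± 0.215 SE, adjusted p = 2.2e-09). The interaction of -6.01 (SE 0.242, edgeR adjusted p = 1.1e-11) was the largest of the 47 members tested.

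Ifit1, its neighbour on chromosome 19 (34640889 to 34650009, against 34550550 to 34576534 for Ifit2), fell in ILC2s from 103 and 86.5 CPM to 4.39 and 4.87 CPM (log2 change -4.14 ± 0.154 SE). In CD8 T cells Ifit1 was at 4.31 and 4.26 CPM labelled alone and at 5.88 and 4.85 CPM labelled co-cultured (edgeR log2 change 0.24 ± 0.166 SE, adjusted p = 0.22). The 2 ILC2 libraries labelled co-cultured thus held Ifit1 within the range of the CD8 libraries, and those labelled alone held at least 86.5 CPM. Ifit3 was low in CD8 T cells, at 0.228 to 0.581 CPM over the 4 libraries, and did not pass.

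Ifitm3, whose membrane protein hinders the entry of enveloped viruses, fell alike in both. It stood at 17.2 and 15.1 CPM in CD8 libraries labelled alone and at 2.101 and 2.27 CPM in those labelled co-cultured (edgeR log2 change -2.96 ± 0.148 SE, adjusted p = 8.1e-09). In ILC2s it stood at 435 and 492 CPM and then at 57.1 and 70.1 CPM (log2 change -2.65 ± 0.135 SE). The responses did not differ beyond their error (interaction 0.15, SE 0.175, edgeR adjusted p = 0.49). Ifitm2, on the same chromosome, did not pass in either cell type, with 55.3 to 66.0 CPM over the CD8 libraries and 131 to 170.3 CPM over the ILC2 libraries.

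Isg20, an exonuclease gene, was the 1 member whose log2 change was higher, that is less negative, in ILC2s by the interaction test. Ifi35 joined it under 4 alternatives. Isg20 fell in CD8 T cells from 9.74 and 8.06 CPM to 1.62 and 1.82 CPM (log2 change -2.45 ± 0.177 SE). In ILC2s it stood at 28.2 and 19.4 CPM labelled alone and at 15.7 and 16.4 CPM labelled co-cultured (edgeR log2 change -0.35 ± 0.174 SE, adjusted p = 0.092), and without ILC2 alone replicate 2 this fall was called (-0.59, adjusted p = 0.0087). The interaction was 1.94 (SE 0.249, edgeR adjusted p = 7.5e-06), and it was not called with the ILC2 libraries scaled to their marker genes (0.34, edgeR adjusted p = 0.26).

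Samhd1, which encodes an enzyme that breaks down the deoxynucleotides retroviruses need, was the effector that rose in both cell types. Its level was 339.6 and 361 CPM in CD8 libraries labelled alone and 1040 and 966 CPM in those labelled co-cultured (edgeR log2 change 1.44 ± 0.074 SE, adjusted p = 9.8e-09). ILC2s held 1028 and 933 CPM and then 1188 and 1098 CPM (edgeR log2 change 0.44 ± 0.116 SE, adjusted p = 0.0058), a call that ended without ILC2 co-cultured replicate 1 (log2 change 0.31, edgeR adjusted p = 0.062) and with scaling by library total (0.22, edgeR adjusted p = 0.078). The levels of CD8 T cells labelled co-cultured overlapped those of ILC2s labelled alone.

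Of the remaining effectors, Mx1 and Mx2, of the dynamin-like GTPase family, are annotated by RefSeq as transcribed pseudogenes. Both were low and fell in both cell types. Mx1 stood at 2.30 and 1.65 CPM in CD8 libraries labelled alone and at 0.499 and 0.358 CPM in those labelled co-cultured. Bst2, whose product tethers budding virus to the cell surface, fell from 39.2 and 34.8 CPM to 25.4 and 26.3 CPM in CD8 T cells and from 121 and 116 CPM to 48.6 and 55.6 CPM in ILC2s. Ifi47, a GTPase gene, also fell in both. Rsad2, which encodes viperin, Cmpk2, Parp12 and Samd9l fell in ILC2s and did not pass in CD8 T cells, and the call of Samd9l ended without ILC2 co-cultured replicate 2. Rsad2, for example, went from 48.1 and 40.8 CPM to 13.9 and 12.3 CPM in ILC2s and stayed between 2.17 and 2.66 CPM in the CD8 libraries.

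**Figure D3:**
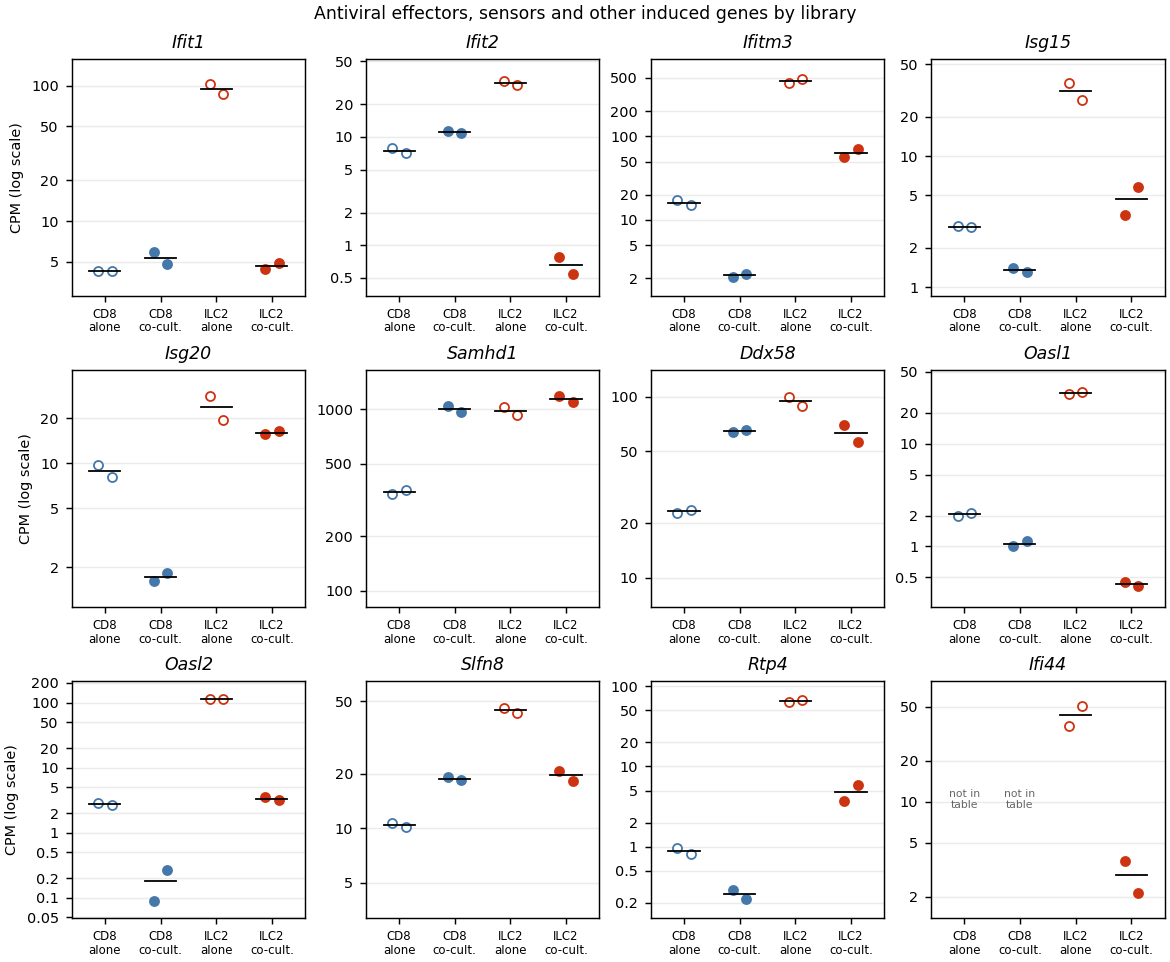
CPM on log axes for antiviral effectors, sensors and other induced genes, with 1 circle a library (open for alone, filled for co-cultured, blue for CD8 T cells, red for ILC2s) and lines at group means. ILC2 libraries labelled alone were the highest for Ifit1 (103 and 86.5 CPM) and Oasl2 (115 and 114 CPM), and Ifit2 was lowest in ILC2s labelled co-cultured (0.784 and 0.541 CPM).

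Among the other induced genes, Slfn8 of the Schlafen family moved in opposite directions. It rose from 10.6 and 10.1 CPM to 19.1 and 18.4 CPM in CD8 T cells (edgeR log2 change 0.78 ± 0.111 SE, adjusted p = 5.0e-05). In ILC2s it fell from 46.1 and 43.2 CPM to 20.7 and 18.3 CPM (edgeR log2 change -0.98 ± 0.138 SE, adjusted p = 7.0e-05). The libraries labelled co-cultured overlapped between the cell types, while those labelled alone did not (interaction -1.91, SE 0.169, edgeR adjusted p = 1.2e-07).

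Rtp4, a receptor-transport protein gene, fell in ILC2s from 62.6 and 66.7 CPM to 3.75 and 5.87 CPM (edgeR log2 change -3.54 ± 0.184 SE, adjusted p = 2.0e-08). Rtp4 in CD8 T cells was under 1 CPM in every library and fell as well (log2 change -1.88 ± 0.376 SE). Ifi44 fell in ILC2s from 36.3 and 50.6 CPM to 3.65 and 2.12 CPM (edgeR log2 change -3.69 ± 0.26 SE, adjusted p = 2.3e-07). Slfn2, Xaf1 and Ifi27l2a fell in both cell types, Slfn5 and Rnf213 fell in ILC2s and did not pass in CD8 T cells, and Epsti1 did not pass in either.

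Set side by side, the responses of 47 members could be compared. Of the 47, 6 rose in both cell types and 15 fell in both (12.8% and 31.9%, beside 16.9% and 17.8% of all genes tested in both), and in 8 cases (Irf7, Usp18, Trim30a, Parp14, Adar, Ddx58, Ifit2 and Slfn8) the gene rose in CD8 T cells and fell in ILC2s. Of these 8, the calls of Irf7, Parp14 and Trim30a in CD8 T cells and of Ddx58 in ILC2s ended under at least 1 alternative. No member rose in ILC2s and fell in CD8 T cells, beside 4.54% of genes. The 8 opposite members were 17.0% of the 47, beside 6.33% of the 14835 genes tested in both. By the interaction test over all 8 libraries, 36 of 47 members had a lower log2 change in ILC2s and 1 a higher one (76.6% and 2.13%), beside 32.6% and 21% of the 15532 genes tested (53.6% called in all). Among all genes tested, 39.2% of the interaction calls were higher, and this share was 49.4% with upper quartile scaling, 29.0% with scaling by library total and 1.91% with the ILC2 libraries scaled to their marker genes. The members with a lower log2 change in ILC2s numbered 33, 39 and 46 in these 3 settings. Beside Oasl2 and Irf9, the interaction calls of Oas1a, Mx2 and Eif2ak2 ended when at least 1 library was left out.

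**Figure D4:**
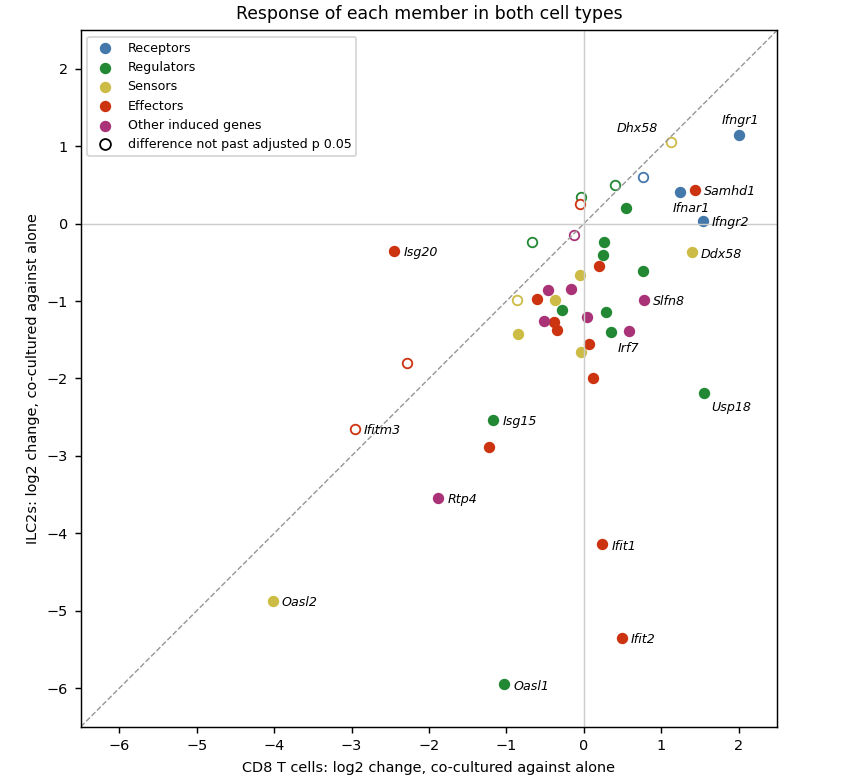
Log2 change in CD8 T cells (horizontal) and ILC2s (vertical) for the 47 members tested in both, coloured by role, with open circles where the difference between the responses did not pass an edgeR adjusted p of 0.05 and a dashed line of equal change. Most members lie under the line, among them Usp18 at 1.55 and -2.19 and Ifit2 at 0.49 and -5.35, while Isg20 lies above it at -2.45 and -0.35.

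Levels in ILC2 and CD8 libraries of the same label were also set beside each other, as a description with no test. The part of RNA of other cells in these levels was not tested. Among libraries labelled alone, 42 of 47 members (89.4%) were higher in both ILC2 libraries than in both CD8 libraries, with a median ratio of 3.2, against 39.4% of all 16226 genes in both tables and a median ratio of 0.97. Among libraries labelled co-cultured the count was 29 of 47 (61.7%) with a median ratio of 1.40, against 34.6% and 0.892 over all genes. Dhx58, Ifi27l2a and Epsti1 were lower in ILC2s under both labels. Usp18, Ifit2, Oasl1, Adar, Ifnar1, Oas3 and Slfn2 were lower in ILC2s among libraries labelled co-cultured only.

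Per kilobase of exon, Ifngr1 was the most abundant member in CD8 T cells labelled co-cultured (533 CPM per kb) and in ILC2s labelled co-cultured (717 CPM per kb). In CD8 libraries labelled alone it came after Slfn2 (125 and 152 CPM per kb). In ILC2s labelled alone Ifitm3 led with 683 CPM per kb, and it came after Ifngr1, Ifitm2, Slfn2 and Samhd1 with 93.8 CPM per kb in those labelled co-cultured.

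Matches to the ISRE core were set beside the responses as a description. In ILC2s 13 of the 14 tested members with a match fell and 0 rose, and of the 25 without one 14 fell and 5 rose. Among all genes tested in ILC2s, 34.4% fell and 31.8% rose. The 5 that rose include Ifnar1, Ifnar2 and Ifngr1, and 0 of 4 receptors held a match, so the split is mixed with role. Dhx58, which also rose, had no window. Of CD8 T cell responses, 3 of 15 members with a match rose and 6 fell, and of the 24 without one 10 rose and 7 fell. Among all genes tested in CD8 T cells, 30.2% rose and 30.7% fell. A link between these letters and the responses was not tested.

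The rest of the pathway was followed with 106 further genes of ligands, signalling, adaptors and other induced genes. In CD8 T cells 40 of the 77 tested rose and 19 fell (51.9% and 24.7%, beside 30.2% and 30.7% of all genes tested). In ILC2s 23 of 81 rose and 39 fell (28.4% and 48.1%, beside 31.8% and 34.4%), so the share that rose there was near that of all genes. Of 21 interferon genes, only Ifnz and Ifng were in the tables, and no gene of interferon alpha or beta was in either table. Ifng, the gene of interferon gamma, went from 1591 and 1513 CPM to 106 and 106 CPM in CD8 T cells and from 203 and 210.2 CPM to 0.371 and 3.12 CPM in ILC2s, whose libraries labelled co-cultured thus differed from each other. Signalling genes rose in 12 of 17 cases in CD8 T cells and 9 of 17 in ILC2s, and fell in 1 and 4 (70.6% and 52.9% up, 5.88% and 23.5% down). Adaptors and other sensors rose in 7 of 13 and 6 of 13 cases and fell in 0 and 4 (53.8% and 46.2% up, 0% and 30.8% down). The other induced genes counted 21 up and 17 down of 45 in CD8 T cells and 8 up and 30 down of 49 in ILC2s, which is the direction the members took in ILC2s.

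Stat2, the gene of a signal transducer of the type I receptor, rose in CD8 T cells from 37.8 and 43.4 CPM to 80.6 and 83.6 CPM (log2 change 0.94 ± 0.088 SE). It fell in ILC2s from 125 and 102 CPM to 70.5 and 66.3 CPM (edgeR log2 change -0.52 ± 0.134 SE, adjusted p = 0.0051), a call that ended without ILC2 alone replicate 1 (-0.37, edgeR adjusted p = 0.063). Irf1, a transcription factor gene induced by interferon gamma, rose in both cell types, by 0.54 (SE 0.07) and 0.61 (SE 0.111), with no difference called between them (interaction -0.09, SE 0.127, edgeR adjusted p = 0.55).

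The feedback inhibitors of JAK kinases were lower in ILC2s labelled co-cultured. Socs1 fell from 352 and 310.4 CPM to 79.96 and 82.0 CPM there (log2 change -1.82 ± 0.121 SE) and by less in CD8 T cells, from 133 and 109.8 CPM to 95.8 and 103 CPM (log2 change -0.36 ± 0.089 SE). Socs3, which acts mainly on receptors of the interleukin-6 family, rose in CD8 T cells from 24.4 and 30.3 CPM to 114 and 118 CPM and fell in ILC2s from 273 and 284 CPM to 128 and 112 CPM (interaction -3.16, SE 0.166, edgeR adjusted p = 2.5e-10).

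The largest changes of pathway genes in ILC2s were those of the interferon-induced chemokine genes Cxcl10 and Cxcl9. Cxcl10 stood at 545 and 536 CPM labelled alone and 0.309 and 0.333 CPM labelled co-cultured (15 and 16 reads), and Cxcl9 at 528 and 491 CPM and then 0.351 and 0.395 CPM (17 and 19 reads). Phf11d and Apol9a also fell, to under 1 CPM in each library labelled co-cultured, by log2 changes of -7.38 (SE 0.217) and -7.30 (SE 0.245). Among CD8 libraries Nod1, the gene of a sensor of bacterial cell walls, rose from 8.602 and 10.7 CPM to 39.9 and 39.9 CPM, and Ifi209 rose from 15.5 and 22.2 CPM to 72.7 and 72.3 CPM. Both fell in ILC2s, Nod1 from 73.2 and 79.1 CPM to 1.49 and 2.60 CPM and Ifi209 from 54.2 and 57.1 CPM to 18.1 and 14.0 CPM.

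Of the marker lists in the CD8 libraries, 11 of the 14 ILC2 markers were in the table, and their sum was 465.7 to 514.1 CPM labelled alone and 460.7 to 484.5 CPM labelled co-cultured. The markers Il17rb, Klrg1 and Il13 were not in that table, and Il1rl1, the interleukin-33 receptor gene, was at 1.43 and 0.541 CPM on average in these groups against 797 and 2242 CPM in ILC2s. Macrophage markers (5 of 13 in the table, 1 up and 2 down) summed to 16.6 to 18.5 CPM labelled alone and 29.6 to 31.7 CPM labelled co-cultured, and stroma markers (6 of 13, 4 up and 2 down) to 84.2 to 85.0 CPM and 184.4 to 191 CPM. Most of the macrophage sum was Cd68 (13.9 and 30.2 CPM on average), while Csf1r and Lyz2 fell. In the stroma sum Pecam1 rose from 37.4 to 131 CPM and Epcam from 15.9 to 33.5 CPM on average. Col1a1 and Pdgfrb rose only to 1.00 and 1.42 CPM, and Lum and Thy1 fell. The sums therefore do not show whether macrophages or stroma were more frequent. The part of other cells in the CD8 results was not tested.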

How the data were processed

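Per the labels' protocols, RNA of the 8 samples was extracted with Trizol and amplified with the SMART-Seq v4 kit for low input. The authors deposited 1 table of raw counts for each cell type, with genes given by symbol. The submitters' processing notes name the build mm10 and the tools StringTie 2.1.3b, SAMtools 1.9, HISAT2 2.1.0 and Trimmomatic 0.38. What each tool did, the annotation, strand setting and filters are not stated in the notes used. No count is 0, so a gene without reads in 1 library of a table is not in that table. Sharing of reads between similar genes is not described, so values of Ifit1, Ifit3, Oas1a, Oasl1, Oasl2, Slfn8, Trim30a, Ifitm2 and Ifitm3 are uncertain, as are those of overlapping genes.

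Counts were tested with the quasi-likelihood F test of edgeR 4.0.16 (R 4.3.3) after filterByExpr and TMM scaling, with Benjamini-Hochberg adjustment over all genes tested, within each table and as an interaction over all 8 libraries. The SE is the log2 change divided by the square root of F. Alternatives used DESeq2 1.42.0, limma 3.58.1 (voom), other scalings and filters, and left-out libraries. Tested on simulated data, the fit found 96.2% of genes changed by 1 on the log2 scale for CD8 T cells (15885 genes), 95.3% for ILC2s (16751) and 82.4% for the interaction (15460). It also called 10, 15 and 8 unchanged genes. The simulation changed 200 genes, none of very low level, a far smaller part than was called here. It used 1 fixed setting for the spread, so these shares need not hold for the real libraries. CPM are counts over the library total, and log2 changes include scaling factors. Exon lengths came from GENCODE M21, and gene positions and promoters from RefSeq (GRCm38.p6, the assembly of mm10). The 2 libraries of a group were not duplicates (chi-square of 12.5 to 25.9 per gene, where sampling noise gives about 1). Full values were given for the 8 members of largest called change per cell type and the 5 of largest interaction (mean of at least 5 CPM), the receptors, Irf7, Irf9, Stat2, Irf1, Socs1 and 4 pathway genes per cell type; other values were chosen after they were seen. A gene of this rule is not reported here. Members, lists and tests were chosen with earlier results of these data known. Summaries used Python 3.11.15 and pandas 2.3.3.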

Additional observations from a re-analysis of the deposited data

Results flagged for a closer look

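The response to co-culture differed between ILC2s and CD8 T cells, by the interaction test of edgeR (adjusted p under 0.05), for 24 of the 27 genes with full values that could be tested. Of these 24 differences 23 were negative, meaning a lower log2 change in ILC2s. Such a difference can be a smaller rise in ILC2s, a larger fall, or a fall against a rise. Over all genes tested 53.6% were called, 32.6% lower and 21% higher, and the 27 genes were chosen in part for large changes or differences, so their count restates that choice. Among effectors and other induced genes the differences on the log2 scale were -6.01 for Ifit2, -4.54 for Ifit1, -1.16 for Samhd1, -1.91 for Slfn8, -1.82 for Rtp4 and, as the positive one, 1.94 for Isg20. Among regulators and sensors they were -5.08 for Oasl1, -3.89 for Usp18, -1.93 for Ddx58, -1.91 for Irf7, -1.52 for Isg15, -1.01 for Oasl2 and -0.51 for Irf9. The call of Oasl2 ended under most alternatives, and that of Irf9 without CD8 alone replicate 1. Receptors differed by -1.65 (Ifngr2), -1.03 (Ifngr1) and -0.99 (Ifnar1). Of the other pathway genes, Nod1 differed by -7.13, Cxcl10 by -6.82, Phf11d by -5.26, Ifi209 by -3.60, Socs3 by -3.16, Ifng by -2.89, Stat2 by -1.61 and Socs1 by -1.61. The median over all genes tested was -0.121. Groups of 2 libraries are too small for a check of single outlying libraries.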

How the results depend on the processing

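Counts of members called in CD8 T cells stayed within 1.5 times the reported ones under all 13 alternatives, with 15 to 17 higher and 14 to 17 lower when a library was left out. In ILC2s, 5 to 7 were higher and 32 to 35 lower without a library, and in the interaction 1 was higher and 33 to 36 lower. Scaling to ILC2 marker genes left 0 members higher in ILC2s, called 0 higher in the interaction (12882 genes called in all), and gave ILC2 log2 changes of -0.57 (Ifngr1), -1.67 (Ifngr2), -1.28 (Samhd1), -1.31 (Ifnar1), -1.11 (Ifnar2), -1.52 (Irf9) and -1.11 (Irf1), and an interaction of -1.44 for Ifitm3. Scaling by library total, which moved the median of all genes in ILC2s to -0.223, gave -0.17 (Ifngr2) and -0.02 (Irf9) there and -0.01 for the interaction of Ifitm3. Ifngr2 in ILC2s was -0.11 in the fit of all 8 libraries and ran from -0.07 to 0.13 without a library. Members with a higher interaction numbered 2 with DESeq2 size factors, upper quartile scaling, the DESeq2 test and the stricter filter, and the interaction of Irf1 was 0.03, 0.07 and 0.03 in the first 3. With 3 bases between its parts the ISRE core stood in 12.5% of members and 3.17% of genes. Same-numbered replicates did not deviate together (r = -0.0269 in CD8 T cells and 0.0418 in ILC2s), and the replicate block called 17 members higher and 16 lower in CD8 T cells, 7 and 34 in ILC2s and 1 and 36 in the interaction. Apart from these scalings, the cause of a changed value was not tested. Levels under 1 CPM rest on few reads.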

Other observations

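The following induced genes were named after their values were seen. Ifi204 and Ifi205, of the interferon-inducible family of DNA-binding proteins, stood at 72.3 and 131 CPM on average in ILC2s labelled alone and at 0.538 and 0.767 CPM in those labelled co-cultured. Uba7, the gene of the enzyme that activates ISG15 for conjugation, went the other way in ILC2s, from 180 to 449 CPM on average, while Ube2l6, the gene of the conjugating enzyme that follows it, fell from 178 to 52.1 CPM. Trim14 and Trafd1 rose in both cell types. Of the 49 other induced genes tested in ILC2s, 8 rose and 30 fell (16.3% and 61.2%, beside 31.8% and 34.4% of all genes tested).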
